A study of Mus musculus with 6 samples.

Results

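The DNA mismatch repair genes described here are Msh3, Msh6, Mlh3, Pms1, Pms2 and Exo1, chosen by name as 6 rows of the 55487 genes in the authors' deposited table. All 6 passed the filter on low values, which kept 17278 genes with a normalized count of at least 10 in at least 3 libraries. RNA was sequenced from YFP-expressing cells sorted from the subventricular zone, a stem cell niche beside the lateral ventricles of the adult mouse brain. All mice, on a mixed C57BL/6;Sv/129 background, carried NestinCreERT2, a tamoxifen-inducible Cre under Nestin control, and the R26;EYFP reporter. THC mice had the genotype Rb(F/+);p107(+/-);p130(F/+), and TKO mice had Rb(F/F);p107(-/-);p130(F/F). At 6 to 10 weeks of age both genotypes were given tamoxifen (200 mg/kg per day, 5 days), and tissue was collected 10 days after the last dose, so the THC controls were exposed to Cre and tamoxifen as well. Each of the 3 THC and 3 TKO libraries pooled several mice to reach at least 200000 sorted cells. Library 1 of each genotype belonged to a February batch and libraries 2 and 3 to a November batch.

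Mismatch repair removes base mismatches and small insertion or deletion loops that DNA polymerases leave behind. MutS proteins find the error: Msh6 is the subunit that reads mismatches and short loops, and Msh3 is its alternative for longer loops. MutL proteins then join: Pms2 nicks the faulty strand, Mlh3 acts on loops and, in germ cells, in meiotic crossing over, and Pms1 has a less well defined part. Exo1, a 5′ to 3′ exonuclease, removes the stretch to be replaced, and replication proteins (the clamp PCNA, its loader RFC, RPA, DNA polymerase delta and DNA ligase I) fill and seal the gap. The retinoblastoma proteins pRb, p107 and p130 hold back E2F transcription factors, which switch on many genes of DNA replication and repair when cells enter S phase.

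Libraries held 15536084 to 16961817 reads assigned to genes. Spearman correlations across genes, which are not independent replicates, were 0.974 to 0.988 within a genotype and 0.942 to 0.958 between genotypes. Rbl1, which encodes p107, stood at normalized counts of 520, 497 and 646 in THC 1 to 3 and at 42.0, 18.3 and 14.5 in TKO 1 to 3, so every library fitted its p107 label. Rb1 (1631 to 2022 in THC, 2877 to 3573 in TKO) and Rbl2, which encodes p130 (847 to 1250 in THC, 912 to 976 in TKO), were counted over the whole gene and do not check recombination. TKO 1 had no Xist reads, whereas the other 5 libraries had 944 to 2047. Ddx3y, on the Y chromosome, was at 1896 in TKO 1 and at 510 to 1716 in the other 5. TKO 1 thus showed no sign of female cells, unlike the others, and it is the only TKO library of the February batch.

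Promoter windows from RefSeq (GRCm38.p6, 250 bases before to 50 after the start) were found for 5 of the 6 genes, all but Exo1. They were searched on both strands for 4 spellings of the E2F element (TTTCCCGC, TTTCGCGC, TTTGCCGC and TTTGGCGC), for the cell cycle homology element spelled TTTGAA or TTCGAA, and for the CCAAT box. An E2F spelling was present in Msh3 and Msh6, the MutS genes, and in none of the windows of the MutL genes. Of 32851 windows of this length, 2.26% held at least 1 of the 4 spellings. The sequence around the Msh6 match is shown because such elements are the ones the retinoblastoma family acts through, with the match in capitals.
Msh6, plus strand, chr17:87975054-87975083: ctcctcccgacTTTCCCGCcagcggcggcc
The Msh6 match begins 15 bases after the first base of the RefSeq transcript. The Msh3 window held TTTGGCGC and, overlapping it on the other strand, TTTCGCGC.

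The cell cycle homology spellings were in none of the 5 genes' windows (19.2% of all windows held either). CCAAT on either strand was in the windows of Msh6, Mlh3, Pms1 and Pms2, and in 37.4% of all windows. Shown in capitals are both boxes of Pms1, on opposite strands, and the 1 of 3 boxes in Pms2 that is nearest the RefSeq start. In the GENCODE M21 annotation that Pms2 box lies in an exon of Pms2.
Pms1, minus strand, chr1:53297038-53297067: gccgATTGGctgccagccgcgCCAATccca
Pms2, plus strand, chr5:143909956-143909985: tgtcaaaagcaaCCAATgggtgttccagga
The full 250 bases before the start are shown for Msh6, which was higher in TKO, and for Mlh3, the member that was lower, again with CCAAT in capitals on either strand.
Msh6, plus strand, chr17:87974800-87975049: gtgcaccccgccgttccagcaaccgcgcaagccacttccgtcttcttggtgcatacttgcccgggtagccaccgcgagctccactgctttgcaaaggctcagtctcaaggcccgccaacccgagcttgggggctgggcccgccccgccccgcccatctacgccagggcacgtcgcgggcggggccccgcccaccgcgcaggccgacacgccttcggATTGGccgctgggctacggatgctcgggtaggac
Mlh3, minus strand, chr12:85270600-85270849: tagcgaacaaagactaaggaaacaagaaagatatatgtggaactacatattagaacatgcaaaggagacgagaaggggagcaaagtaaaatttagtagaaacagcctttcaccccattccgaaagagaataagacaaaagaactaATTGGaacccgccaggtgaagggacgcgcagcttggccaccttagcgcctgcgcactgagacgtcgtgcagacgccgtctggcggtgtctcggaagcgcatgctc
These matches describe letters in a window, and binding was not measured.

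The question was how the mismatch repair genes differ between the TKO and THC genotypes. Exo1, Msh6, Msh3 and Pms2 rose in TKO, Mlh3 fell, and Pms1 did not pass the test. The changes were of unequal size: Exo1 rose 3.33-fold, Msh6 1.81-fold, Msh3 and Pms2 1.44-fold each, and Mlh3 fell to 0.662 of its THC level. Thus 5 of 6 members were called at an adjusted p under 0.05 (limma, Benjamini-Hochberg over all 17278 genes), where 27.9% of all genes tested were called. The 4 that rose compare with 14.3% of genes called higher, and the 1 that fell with 13.6% called lower. In all 6 genes the THC and TKO libraries did not overlap, as in 38.9% of genes tested (19.4% higher in TKO, as 5 members were, and 19.5% lower, as Mlh3 was). The median log2 change was 0.52 over the 6 members and 0.00 over all genes tested. In bulk RNA, a change in the number of cells that express a gene and a change in RNA per cell cannot be told apart.

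**Figure D1:**
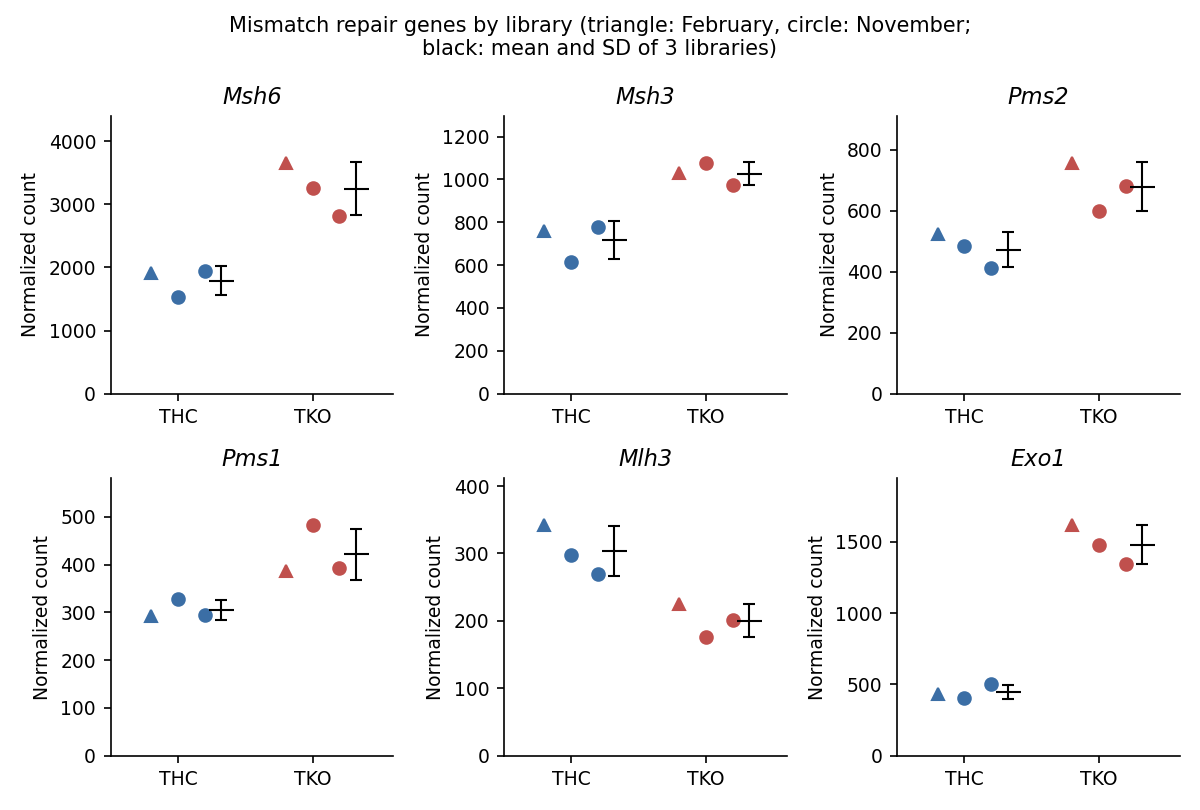
Normalized count (vertical axis, from 0) of each mismatch repair gene in the 3 THC (blue) and 3 TKO (red) libraries, with triangles for February, circles for November and black marks for the mean and SD. TKO points lie above THC points for every gene but Mlh3, where they lie below, and Exo1 has the largest fold difference (402 to 499.9 against 1344 to 1622).

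Msh6, the MutS subunit for mismatches, lies on chromosome 17 (87975062 to 87990892, plus strand, GRCm38) and has 11 merged exons. Its normalized counts were 1915, 1525 and 1937 in THC 1 to 3 and 3665, 3263 and 2823 in TKO 1 to 3. Every TKO library was above every THC library, and TKO 1, of the February batch, was the highest. The mean went from 1792 ± 232 to 3250.2 ± 421 (SD, n = 3 each), a rise of 0.86 on the log2 scale (SE 0.13, limma adjusted p = 0.00052). The difference was 0.94 in the February pair, which has no test, and 0.82 in November. Msh6 passed in all 13 alternative analyses, with adjusted p from 0.00032 to 0.023. Of its exonic bases, 34 are shared with Fbxo11 on the other strand, 0.782% of its exonic length, and the library chemistry keeps no strand.

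Msh3, the MutS subunit for longer loops, spans chromosome 13 from 92211872 to 92355003 on the minus strand. It was at 759, 614 and 777 in THC 1 to 3 and at 1028, 1079 and 974 in TKO 1 to 3. The groups were separated by the gap between THC 3 and TKO 3, and THC 2 was the lowest library, as it was for Msh6. Msh3 rose from 716 ± 89.3 to 1027 ± 52.3 (SD, n = 3 each), by 0.53 (SE 0.14, limma adjusted p = 0.013). Its log2 difference was 0.44 for the February pair and 0.57 for the November libraries. The call was lost without THC 2 (0.42, limma adjusted p = 0.059), without TKO 2 (0.47, 0.065) and with no intensity trend (0.53, 0.072).

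Pms2, the MutL subunit with the nicking activity, lies on chromosome 5 (143909964 to 143933968, plus strand). Its normalized counts were 522, 484 and 411 in THC and 758, 599 and 681 in TKO 1 to 3. Groups did not overlap, with THC 1 and TKO 2 the nearest libraries. Pms2 rose from 473 ± 56.5 to 679 ± 79.9 (SD, n = 3 each), by 0.52 (SE 0.14, limma adjusted p = 0.016), and the difference was 0.54 in February and 0.52 in November. That call was not held in 5 of 13 alternatives: without THC 1 (0.52, limma adjusted p = 0.054), THC 3 (0.46, 0.06), TKO 1 (0.52, 0.056) or TKO 3 (0.47, 0.072), and with no intensity trend (0.52, 0.06). Aimp2, a scaffold gene of the tRNA synthetase complex that starts 117 bases away in the opposite direction, was at 523 to 591 in THC and 475 to 642 in TKO (log2 change 0.02, 95% interval -0.31 to 0.35, limma adjusted p = 0.93).

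Pms1 (chromosome 1, 53189187 to 53297018, minus strand) was at 293, 329 and 294 in THC and 386, 484 and 393 in TKO 1 to 3. All TKO libraries were above all THC libraries, and TKO 2 and THC 2 were the highest of their groups. The means were 305 ± 20.4 and 421 ± 54.3 (SD, n = 3 each), with a log2 difference of 0.46 (SE 0.16, 95% interval 0.11 to 0.81). Its adjusted p of 0.052 (limma) missed the threshold, as it did in all 13 alternatives (0.052 to 0.22). This interval holds the estimates for Msh3 and Pms2, so a smaller change in Pms1 was not shown. Ormdl1, a regulator of sphingolipid synthesis whose annotated start is 77 bases from that of Pms1, rose by 0.40 (SE 0.13, limma adjusted p = 0.045), a call held in 3 of 13 alternatives and lost without any 1 library but THC 3 (adjusted p up to 0.17).

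Mlh3, the MutL subunit with a meiotic role, moved the other way. It lies on chromosome 12 (85234520 to 85270599, minus strand) and had the lowest mean count of the 6. Counts were 343, 297 and 269.6 in THC 1 to 3 and 224, 176 and 201 in TKO 1 to 3, so all TKO libraries were below all THC libraries. February was the highest library in each genotype. The mean went from 303 ± 36.9 to 200.5 ± 24.1 (SD, n = 3 each), and Mlh3 fell by 0.59 on the log2 scale (SE 0.17, limma adjusted p = 0.024), by 0.61 in February and 0.59 in November. The call did not hold without THC 1 (-0.59, limma adjusted p = 0.074), THC 2 (-0.56, 0.072), TKO 1 (-0.59, 0.067) or TKO 2 (-0.54, 0.09), and the direction was the same in all 13 alternatives (-0.65 to -0.54).

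Exo1, the exonuclease, had the highest fold change of the 6 genes. It lies on chromosome 1 (175880581 to 175913489, plus strand), and its normalized counts were 432, 402 and 499.9 in THC and 1622, 1477 and 1344 in TKO 1 to 3. The gap between the genotypes was far wider than the spread within either, and the February library was the highest of TKO. Exo1 rose from 445 ± 50.03 to 1481 ± 139 (SD, n = 3 each), by 1.74 (SE 0.14, limma adjusted p = 4.9e-06). February alone gave 1.91 and November alone 1.65. Only 0.718% of genes tested had a smaller p-value. It passed in all 13 alternatives, with adjusted p from 2.6e-06 to 0.0053.

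No member's genotype difference was shown to depend on batch. The November difference minus the February difference ranged from -0.26 for Exo1 (95% interval -0.90 to 0.39) to 0.13 for Msh3 (-0.52 to 0.78), with an adjusted p of 1 for each gene in a limma fit with a batch by genotype term. That fit called 0.341% of genes tested. The intervals are wide, because the February batch has 1 library per genotype.

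Values in the authors' deposited table ran parallel to these. The authors' deposited table gives log2 fold changes of 1.73 for Exo1, 0.855 for Msh6, 0.52 for Msh3, 0.52 for Pms2, 0.46 for Pms1 and -0.60 for Mlh3. In the authors' deposited table the adjusted p was 2.2e-24 for Exo1, 1.4e-07 for Msh6, 0.0043 for Msh3, 0.0093 for Pms2 and 0.019 for Mlh3. Pms1 had an adjusted p of 0.064 in the authors' deposited table, where 15.0% of 32018 genes with a value were under 0.05.

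To compare the members with each other, counts were divided by the length of the longest principal transcript (GENCODE M21). Msh6 was the most abundant in both genotypes, with 422 ± 54.5 normalized counts per kb (SD, n = 3) for THC libraries and 765 ± 99.0 (SD, n = 3) for TKO libraries. Msh3 followed at 182 ± 22.6 and 260.3 ± 13.2. In THC the order went on with Pms1 (99.9 ± 6.69), Pms2 (86.2 ± 10.3), Exo1 (57.0 ± 6.42) and Mlh3 (55.5 ± 6.76), and the ranges of Exo1 and Mlh3 overlapped. In TKO Exo1 ranked 3, at 189.97 ± 17.8 per kb, ahead of Pms1 (138 ± 17.8) and Pms2 (124 ± 14.6), whose ranges overlapped, and of Mlh3 (36.7 ± 4.41). Per kb of all annotated exons merged, a length that is 11254 bases for Msh3 against 3946 for its principal transcript, the order of several members differed. In THC, Pms2 (58.2 per kb) and Exo1 (52.8 per kb) then ranked 3 and 4, above Pms1 (40.4 per kb) and Mlh3 (40.2 per kb). In TKO, Exo1 ranked 2 (176 per kb) and Msh3 ranked 3 (91.3 per kb). Msh6 stayed first and Mlh3 last on both length scales.

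**Figure D2:**
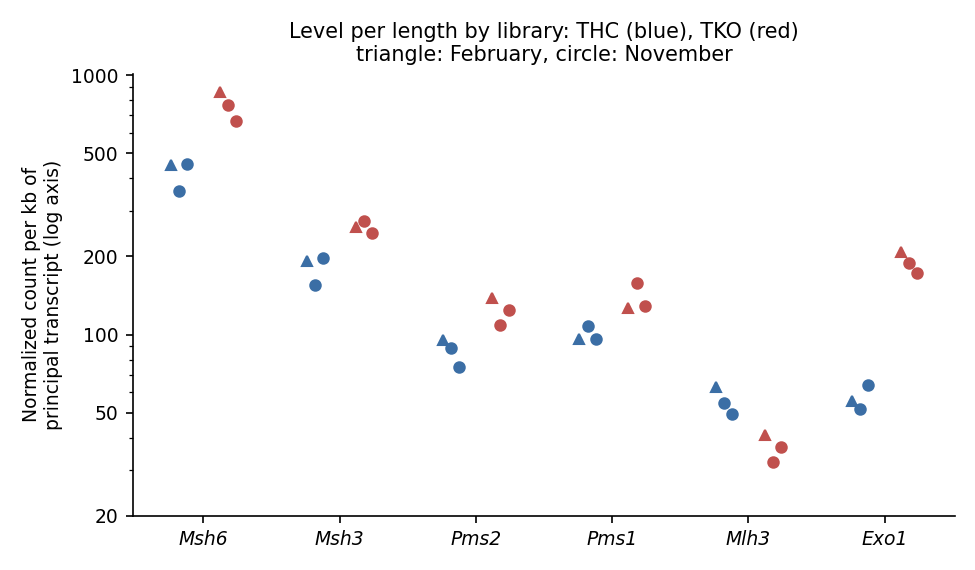
Normalized count per kb of principal transcript (log axis) for each gene in THC (blue) and TKO (red), with triangles for February and circles for November libraries. Msh6 is highest and Mlh3 lowest in TKO, and Exo1 moves from 51.6 to 64.1 per kb in THC to 172 to 208 per kb in TKO.

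Msh6 and Msh3 are alternatives within MutS, and Pms2, Pms1 and Mlh3 within MutL, so ratios of such subunits within each library were compared. The ratio of Exo1 to Msh6 sets the exonuclease beside mismatch binding. These ratios do not depend on how libraries are scaled. With 3 against 3 libraries the exact two-sided permutation test cannot give a p under 0.1, so no ratio could pass, and 4 ratios were tested.

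The ratio of Msh6 to Msh3 normalized counts was 2.52, 2.48 and 2.49 in THC 1 to 3 and 3.57, 3.02 and 2.90 in TKO 1 to 3. The 3 THC libraries lay close together, and every TKO library was higher. The log2 ratio went from 1.32 ± 0.01 to 1.65 ± 0.16 (SD, n = 3 each), a difference of 0.33 (exact permutation p = 0.1, adjusted over the 4 ratios 0.133). This difference was 0.50 in February and 0.25 in November.

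Pms2 to Mlh3 showed the widest separation. This ratio was 1.52, 1.63 and 1.52 in THC and 3.38, 3.40 and 3.39 in TKO 1 to 3, a log2 difference of 1.12 (exact permutation p = 0.1, adjusted 0.133), equal to 2.17-fold. The SD of the log2 ratio was 0.06 among THC and 0.004 among TKO libraries.

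By contrast, Pms2 to Pms1 stood at 1.78, 1.47 and 1.40 in THC and at 1.96, 1.24 and 1.73 in TKO 1 to 3. The groups overlapped, with a log2 difference of 0.07 (exact permutation p = 0.9, adjusted 0.9) that changed sign without THC 3 (-0.01) or TKO 1 (-0.08). Exo1 to Msh6 was 0.226, 0.264 and 0.258 in THC and 0.443, 0.453 and 0.476 in TKO 1 to 3, a log2 difference of 0.88 (exact permutation p = 0.1, adjusted 0.133).

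**Figure D3:**
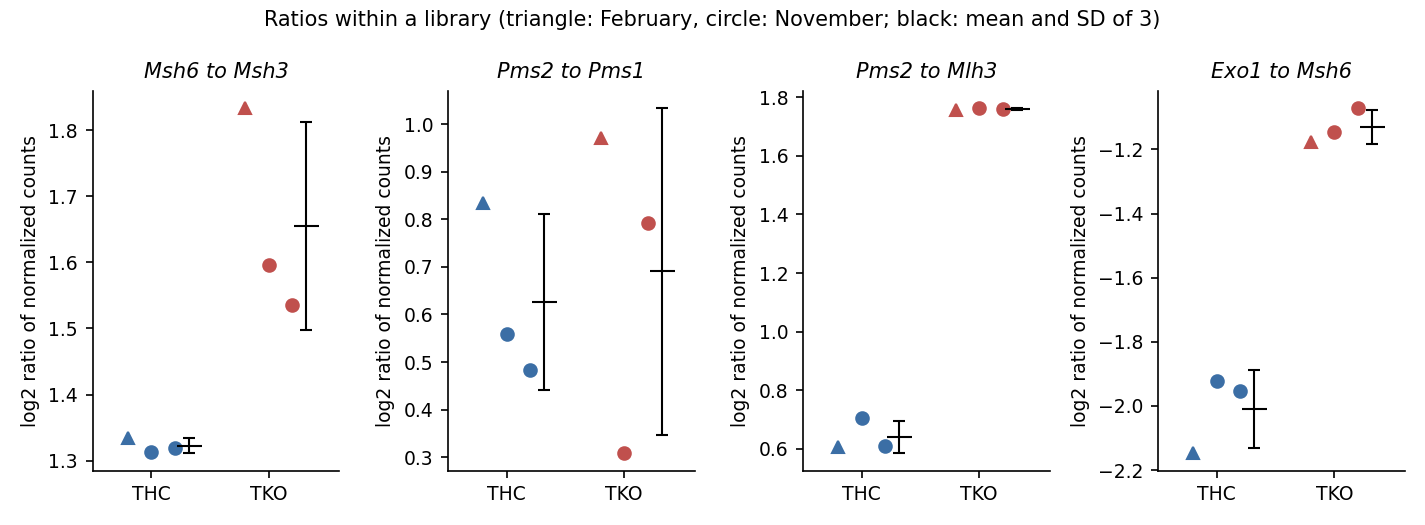
Log2 ratio of normalized counts within each library for 4 gene pairs in THC (blue) and TKO (red), with triangles for February, circles for November and black marks for the mean and SD of 3 libraries. Vertical scales differ between panels and do not start at 0. THC and TKO are separate for every pair but Pms2 to Pms1.

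The proteins that complete mismatch repair were examined as a list of 23 genes. In TKO 21 rose, where 14.3% of all genes tested were called higher, and none fell. The median log2 change was 0.83 beside 0.00 over all genes tested. From 17 to 19 rose with 1 library left out, and 15 with no intensity trend. All the clamp loader genes listed rose, from Rfc1 (0.74) to Rfc4 (1.40), and so did the clamp gene Pcna, which went from 3899 ± 960 to 9807 ± 774 (SD, n = 3 each; log2 change 1.36, SE 0.16, limma adjusted p = 7.7e-05). Atad5, which takes the clamp off DNA, rose by 1.39 (SE 0.13, limma adjusted p = 1.4e-05) and Rfc3 by 1.19 (SE 0.13, limma adjusted p = 4.3e-05). Rpa2, of the single-strand binding complex, rose by 1.24, Lig1, the ligase, by 1.17, and Pold1, the catalytic subunit of polymerase delta, by 1.32. Rfc5, another loader subunit, rose by 1.21. Smaller rises were seen for Setd2 (0.40), which makes the histone mark that the Msh6 protein binds, and for the helicase gene Mcm9 (0.44). Each of these calls held in 4 of 13 alternatives, and was lost without any 1 library except THC 2 for Mcm9 and without each of the 6 for Setd2 (limma adjusted p up to 0.1 for Setd2 and 0.17 for Mcm9). Pold4 (-0.29, limma adjusted p = 0.6), the smallest polymerase delta subunit, and the nuclease gene Fan1 (-0.35, limma adjusted p = 0.29) did not pass.

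**Figure D4:**
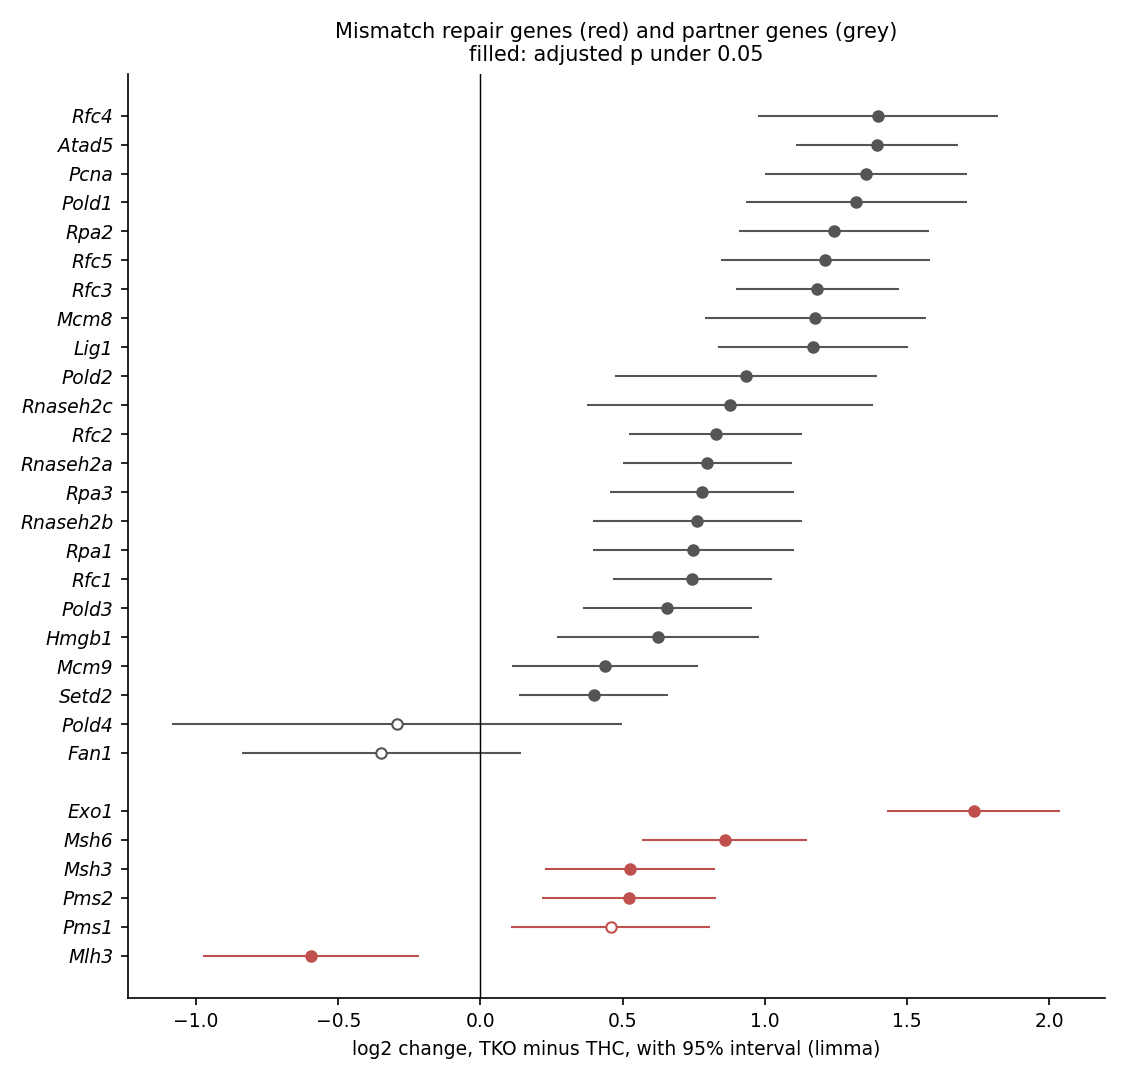
Log2 change (TKO minus THC, limma) with its 95% interval for the 6 mismatch repair genes (red) and 23 partner genes (grey), where filled points have an adjusted p under 0.05. Exo1 lies above every partner (1.74 against at most 1.40), and Mlh3 (-0.59) below every partner.

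Mlh3 was also set beside 7 genes of meiotic crossing over. Msh4, Rnf212 and Ccnb1ip1 were under the filter, and Msh4, the meiotic MutS gene, averaged 2.24 in THC and 4.09 in TKO. Of the 4 tested, 3 rose and none fell (median 2.41), where 14.3% of all genes tested were called higher. Msh5, the partner of Msh4, was at 45.1, 54.8 and 40.4 in THC and 191, 199 and 216 in TKO 1 to 3, a rise of 2.10 (SE 0.25, limma adjusted p = 7.1e-05). Cntd1, a crossover regulator, rose from 23.0 ± 3.12 to 195 ± 38.2 (SD, n = 3 each; log2 change 3.02, SE 0.29, limma adjusted p = 1.7e-05), and Tex11 rose by 2.73 (limma adjusted p = 0.003). Tex11 was at 11.0, 7.55 and 2.02 in THC 1 to 3 and at 58.6, 24.7 and 57.9 in TKO 1 to 3. Its limit is that it passed the filter on low values only with the TKO libraries, where it was high. Both the count of 3 and the median include Tex11. Hfm1, a meiotic helicase gene, had a change of 0.12 (limma adjusted p = 0.74). Mlh3 thus changed in the opposite direction to Msh5 and Cntd1, and to Tex11 with the limit given.

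Markers of cell state and cell type moved between the genotypes as well. Over all genes tested, 14.3% were called higher and 13.6% lower. All 20 S-phase and replication markers rose (median 1.41), with a summed normalized count of 39979 to 55641 in THC and 102742 to 121571 in TKO. All 20 mitosis markers rose (median 1.59, sums 37407 to 56573 and 130096 to 147251). The log2 change of Exo1 lay above both medians, and those of Msh6, Msh3 and Pms2 lay below the lowest single gene of either list (0.91). All 8 oligodendrocyte markers fell (median -2.32, sums 88882 to 96920 and 16314 to 26834). Of 10 neuroblast markers 8 fell (sums 46399 to 66550 and 30283 to 41601), of 13 quiescent stem cell and astrocyte markers 7 fell and 1, Gfap, rose (172316 to 292993 and 148151 to 195396), and of 9 endothelial and mural markers 7 fell (8178 to 14777 and 3605 to 5675). Of 10 microglia markers 6 rose (421 to 3789 and 833 to 6266; 2 to 8 with 1 library left out and 0 without the batch term), of 8 ependymal markers 1 rose and 3 fell (4334 to 13970.1 and 5703 to 7433), and none of 5 oligodendrocyte progenitor markers passed (4277 to 12883 and 6798 to 9325). The ependymal count was not stable: 5 fell without THC 1 or TKO 1, 1 fell without each of the other 4 libraries in turn or without the batch term, and 0 fell with no intensity trend. Without THC 1 or TKO 1, 1 or 2 of the oligodendrocyte progenitor markers rose, respectively. Other counts moved as well. The endothelial and mural markers that fell numbered 3 with no intensity trend, and 8 without THC 1, THC 3 or TKO 1. The quiescent stem cell and astrocyte markers that fell numbered 5 without THC 1, THC 2 or TKO 1, and 10 without THC 3. The neuroblast markers that fell numbered 6 without THC 1, THC 3 or TKO 1. No marker of any list was at 0 in all libraries. The part of these shifts in the changes of the mismatch repair genes was not tested.

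For each member, the 2 genes with the most similar pattern were taken from 11362 named genes with a mean normalized count of at least 100, by Pearson's r of log2 values over the 6 libraries. The genotype difference makes up much of each pattern, so r is given as a description. Exo1 was closest to Orc1, of the origin recognition complex (r = 0.999, log2 change 1.57), and to the spindle gene Tacc3 (r = 0.999, 1.54). Msh6 was closest to the recombination gene Xrcc3 (r = 0.997, 0.68) and to Rfc1 of the clamp loader (r = 0.996, 0.74). Msh3 was closest to Neto2 (r = 0.9995, 0.94) and to the kinetochore gene Zw10 (r = 0.998, 0.58). Mlh3 was closest to Dop1b (r = 0.999, -0.58) and Slc22a23 (r = 0.998, -0.93). The nearest genes of Pms1 were Ppp1r8 (r = 0.997, 0.33) and Cnpy1 (r = 0.994, 0.83), and those of Pms2 were Mrps18b (r = 0.997, 0.26) and Glis3 (r = 0.994, 1.05). Ppp1r8 (limma adjusted p = 0.076) and Mrps18b (0.32) did not pass the test between genotypes.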

How the data were processed

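The submitters' processing notes name HISAT2, featureCounts of Subread and DESeq2 on GRCm38. Their versions, the annotation and the treatment of shared reads were not given in the sources used here. The authors' deposited table holds a normalized count per gene and library, a signal scaled by 1 factor per library. Every value was a whole multiple of 1 step per library (0.944 to 1.07) to within 3.2e-05 of a read, which gave the reads per library. The other deposited columns, per the file headers, are the mean, the log2 fold change and its error, a test statistic (a score), raw and adjusted p-values, and a weighting score. SMART-Seq v4 and Nextera XT libraries, named in the labels' protocols, keep no strand.

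Here limma (version 3.58.1, R 4.3.3) was run on log2(normalized count + 1) with an intensity trend and terms for batch and genotype (3 residual and 8.9 prior degrees of freedom), on 17278 genes with at least 10 in at least 3 libraries. Fold changes are on this scale, so low genes' changes are understated, whereas means ± SD use unlogged values. Samples were grouped by title and batch label, and p-values measure the spread between pools. Gene spans are from GENCODE M21 (GRCm38). The members, 13 other gene lists and tests were chosen with earlier results of these data known. Genes named are the members, head-to-head neighbours of Pms1 and Pms2 (added after their values were seen), list members with the smallest adjusted p, further list members named after their values were seen, and the 2 nearest patterns per member. The result for 1 further gene is not reported here.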

Additional observations from a re-analysis of the deposited data

How the results depend on the processing

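The planned count tests (edgeR, DESeq2) and TMM scaling were not run; upper-quartile scaling, chosen after seeing the data, took the place of the latter and changed no call of a member. With no intensity trend, 1484 genes were lower in place of 2345, and 3 members were called in place of 5, since Msh3 (0.53) and Pms2 (0.52) no longer passed. Leaving out 1 library at a time gave 3 to 4 calls among the members and log2 changes of 0.42 to 0.61 for Msh3, 0.77 to 0.97 for Msh6, -0.65 to -0.54 for Mlh3, 0.36 to 0.53 for Pms1, 0.46 to 0.59 for Pms2 and 1.65 to 1.85 for Exo1. Without THC 1 or TKO 1 the difference rests on November alone. The TKO minus THC difference in the log2 ratio of Pms2 to Pms1 ranged from -0.076 to 0.256. This difference changed sign without THC 3 (-0.007) or TKO 1, and those of the other 3 ratios kept their sign. No member reversed in any alternative.

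The labels name no source shared by the replicate numbers beyond the February label. Correlations of deviations were 0.231, -0.106 and 0.141 for pairs 1, 2 and 3. THC 2 and THC 3 each correlated best with another number. With 3 libraries per genotype, these correlations cannot show whether the numbers share a source. With the replicate block, 2147 genes were higher and 1922 lower, against 2469 and 2345, and 5 members were called, with Msh6 at 0.86 and Mlh3 at -0.59 (limma adjusted p = 0.048). Member normalized counts ranged from 176 to 3665, in 3 libraries per genotype.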

Other observations

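Exo1 also works outside mismatch repair, in trimming broken DNA ends before recombination. Of 7 genes of end resection, 6 rose in TKO and none fell, where 14.3% of all genes tested were called higher. Their median log2 change was 0.87. Dna2, a nuclease and helicase that acts in parallel to Exo1, was at 247, 282 and 302 in THC and 639, 627 and 607 in TKO 1 to 3, a rise of 1.17 (SE 0.15, limma adjusted p = 0.00012). Blm, the helicase that works with both nucleases, rose by 1.02 (SE 0.14, limma adjusted p = 0.00017), and Rad50, of the complex that starts resection, by 0.87 (SE 0.14, limma adjusted p = 0.00053). Wrn had a change of 0.35 (limma adjusted p = 0.18).

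The nucleases related to Exo1 in structure did not move alike. Gen1, which cuts recombination junctions, rose from 153 ± 35.5 to 526 ± 61.8 (SD, n = 3 each; log2 change 1.79, SE 0.21, limma adjusted p = 6.3e-05). Ercc5, the nuclease of nucleotide excision repair, fell by 0.41 (SE 0.13, limma adjusted p = 0.037), and Fen1, at 15.1 in THC and 23.3 in TKO, had a change of 0.58 (limma adjusted p = 0.36). The Ercc5 call held in 2 of 13 alternatives and was lost without each of the 6 libraries in turn, with adjusted p up to 0.25 over all alternatives (limma).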
